A study of Mus musculus with 18 samples.

Results

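The early transcript response to retinoic acid (RA) was examined in mouse embryonic stem (ES) cells that lack CYP26A1, an enzyme that breaks RA down. The comparison holds 6 of the 18 arrays of the study: 3 of CYP26A1-/- cells given 100 nM RA with leukemia inhibitory factor (LIF) for 8 h, and 3 of CYP26A1-/- control cells kept with LIF for 8 h. The arrays were chosen by the genotype, treatment and time in their titles, with no measured value. Wild-type (Wt) AB1 ES cells with the same treatments gave another 3 and 3 arrays. Cells kept with 100 nM RA and LIF for 72 h gave 2 CYP26A1-/- and 2 wild-type arrays. Control cells labelled as lacking LIF for 8 h gave 1 CYP26A1-/- and 1 wild-type array. The labels name 1 knockout type and say neither how many clones it covers nor how the gene was disrupted, and no 72 h control is among the samples. Nothing in the sources used here says whether repeats came from separate cultures, and the p-values may then cover technical spread alone.

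RA is made from vitamin A and acts through RAR and RXR nuclear receptors, which sit on DNA as pairs at direct repeats of a short half-site and switch on nearby genes when RA binds. Cells limit the signal by degrading RA with CYP26 enzymes, whose genes are themselves RA targets, and by turning retinaldehyde back into retinol. In ES cells RA ends self-renewal, which LIF supports through STAT3, and induces homeobox genes of the posterior body axis, germ-line genes and genes of extraembryonic endoderm.

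Expression is given as array signal in units, scaled so that the trimmed mean of each array is 500. Values under 50 units were set to that floor before log2 was taken, and the values printed for single arrays are those before the floor. A rise from a group whose 3 arrays all lay under 50 units is a lower bound, written "at least". The 6 arrays had medians of 56.5 to 69.7 units, and between 39.9% and 43.1% of the probe sets on an array reached 100 units. Of the 7 defining ES cell markers all 7 reached 100 units on every array, with a summed signal of 112054 to 121696 units in the control arrays and 120229 to 123839 units in the RA arrays. The signal of Socs3, the gene used to check the LIF labels, went against them on the control arrays of replicate 1. Socs3, which LIF induces through STAT3, read 215, 6001 and 5722 units in control replicates 1, 2 and 3 and 3525, 5232 and 4109 units in the RA replicates, all labelled as kept with LIF. It read 4551 units on the array labelled as lacking LIF, as high as on the other arrays labelled as kept with LIF. Wild-type cells showed the same, with 368 units on control replicate 1 labelled as kept with LIF and 3800 units on the array labelled as lacking it. These are the values that an exchange of the LIF labels within replicate 1 would give, and whether the labels were exchanged was not tested. Knockout control replicate 1 also stood apart for some other genes, such as Otx2 and Dusp4 below, but not for Pim1. Counts are therefore also given without the library labelled knockout control replicate 1 and with the LIF labels of replicate 1 exchanged in both genotypes.

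After 8 h of RA, 98 genes rose and 11 fell in the knockout cells, out of 11388 genes tested with limma at an adjusted p of 0.05. This was 0.957% of the genes tested, 0.861% higher and 0.0966% lower. At an unadjusted p under 0.05 it was 986 genes (8.66%), 590 higher and 396 lower, the background for the list counts at that threshold below. The rises ran from 0.53 to 3.75 on the log2 scale with a median of 1.15, and 68 of them were 2-fold or more and 9 were 4-fold or more. The falls ran from -0.42 to -1.50, 5 of them were 2-fold or more, and 0 were 4-fold. All 3 control arrays lay at the floor for 10 of the 98 rises. A gene at the floor in controls cannot be called lower, and can pass the filter on low signal only through arrays where it is high, so the control levels of rises and falls are not compared. In all 109 called genes the RA arrays lay wholly above or wholly below the control arrays, a pattern found upward in 6.59% and downward in 5.94% of all genes tested. Without control replicate 1 the call held for 57 of the 109 genes, 64 genes were called in all, 61 higher and 3 lower, and all 109 kept their direction. With the LIF labels of replicate 1 exchanged the call held for 95 of the 109 and 156 genes were called, 127 higher and 29 lower. The count also fell to 41 without control replicate 2, to 40 without RA replicate 1 and to 36 without RA replicate 3, and with the replicate number as a block it was 342 (3% of genes tested), of which 245 (2.15%) were higher and 97 (0.852%) lower. All 109 genes were called in that fit. Where an adjusted p without 1 array is given below for a called gene, it is the largest of the 6 fits that left out 1 knockout array. The other fits need not have kept the call. Among such rises it held in 0 of the 6 for Tgfbr3 and Kcnk4. It held in 1 for Dhrs3, Rarb, Dppa2 and Gata6, and at most in 5, for Sema4g and Sorcs2.

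**Figure D1:**
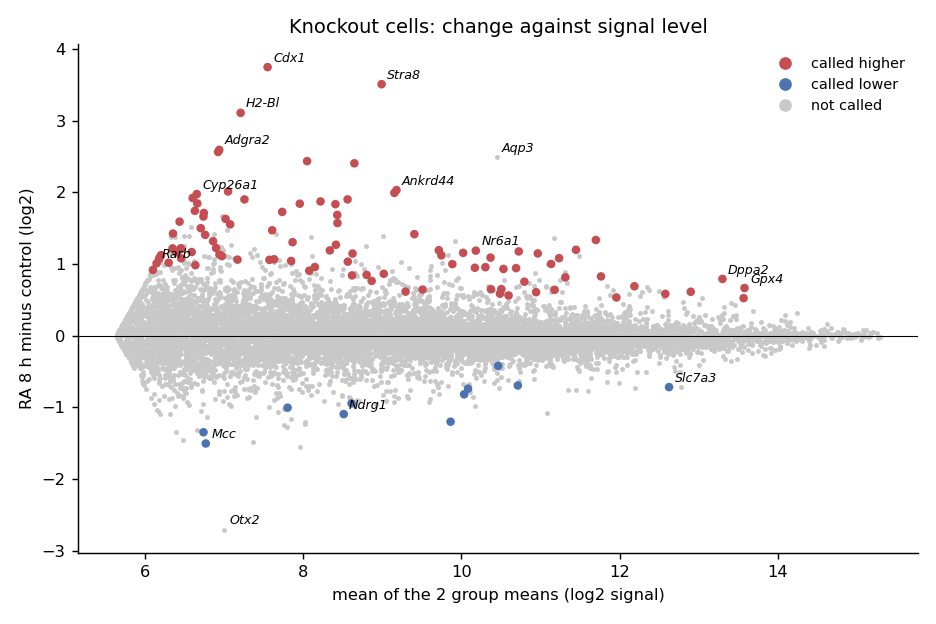
Change after 8 h of RA in knockout cells (vertical axis, log2 difference) against the mean of the control and RA group means (horizontal axis, log2 signal), 1 point per gene tested, with called genes coloured by direction. The 98 rises reach 3.75 and the 11 falls reach -1.50, and 3 of the 4 largest rises, those of Cdx1, H2-Bl and Adgra2, lie toward the dim end at the left.

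Genes that make, degrade and carry RA were taken as the starting point. Cyp26a1, the disrupted gene itself, read 52.6, 9.81 and 23.3 units in control replicates 1 to 3 and 193, 216 and 193 units after RA. Signal from the locus was thus low in every control array and higher in every RA array, with 2 of the 3 control arrays at the floor, and the rise was 1.98 ± 0.29 (adjusted p 0.00311). The position of the probes relative to the disrupted part was not examined here, so this signal is no check of the genotype. Dhrs3, which reduces retinaldehyde to retinol, went from 77.6, 17.7 and 7.73 units to 114, 142 and 149 units. Its RA arrays lay above every control array, with a rise of 1.21 ± 0.24 (adjusted p 0.0236, and adjusted p 0.122 without RA replicate 3). Of the 27 genes in the list of RA-degrading and retinoid-oxidising enzymes 12 were bright enough to test, these 2 rose, 0 fell, and the median change was -0.02, close to the median of -0.004 over all genes tested. Among 13 retinoid-binding and uptake proteins 8 were tested and 0 were called by limma, with 2 higher and 0 lower at an unadjusted p under 0.05 and a median change of 0.23. One of these was Stra6, the receptor that takes up retinol from its carrier in blood, which read 13.4, 14.8 and 24.5 units in control and 113, 121 and 179 units in RA arrays. The change was at least 1.43 ± 0.33 and missed the threshold (adjusted p 0.0646), which it passed with the replicate block (adjusted p 0.0306).

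Nuclear receptors and their partners followed. Rarb, the RA receptor whose own gene is a classical RA target, read 29.1, 13.1 and 1.78 units in control arrays and 110.0, 96.7 and 96.1 units after RA. All 3 control arrays were at the floor and the RA arrays lay close to 100 units, so its rise was at least 1.01 ± 0.19 (adjusted p 0.0177, and adjusted p 0.0902 without RA replicate 1). Nr6a1, an orphan receptor that represses Pou5f1 as ES cells differentiate, was bright already in controls at 834, 758 and 721 units and reached 1672, 1787 and 1804 units. The groups were far apart relative to their spread, and the rise was 1.19 ± 0.13 (adjusted p 0.000287). Of 19 listed retinoid and related nuclear receptors 15 were tested, 2 rose, 0 fell, and the median was 0.27. Nrip1, a corepressor that binds ligand-activated receptors, went from 290.0, 239 and 269.7 units to 502, 577 and 700.1 units, a rise of 1.15 ± 0.17 (adjusted p 0.00311). Tle6, a relative of the Groucho corepressors, went from 188, 192 and 161 units to 712, 606 and 614 units, a rise of 1.84 ± 0.22 (adjusted p 0.000713). For both, every RA array was above every control array by more than the spread within either group. The 22 listed coregulators had 19 tested, and the other 17 of these were not called, and the list's median was -0.14.

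Because RAR and RXR pairs bind direct repeats, the promoters of the called genes were searched for them. RefSeq promoters (assembly GRCm38.p6) from 250 bases before to 50 bases after each transcription start were scanned on both strands for pairs of half-sites spaced by 5 bases (DR5), 2 bases (DR2) or 1 base (DR1). A half-site was the consensus AGGTCA, the common variant AGTTCA, the further variant GGGTCA or, as the last accepted spelling, GGTTCA. A DR5 was found in 2 of the 75 genes that rose and had a promoter in the table (2.67%), against 4 of 9258 genes tested (0.0432%) and 31 of all 27025 genes in the table (0.115%). They were Cyp26a1 and Rarb, both described above as RA targets, and the 4 genes tested include them. Their repeats hold only the variants AGTTCA and GGTTCA and no consensus half-site. The shares thus depend on the spellings accepted and are a description with no test. DR2 and DR1 were found in 0 of the 75, and none of the 3 motifs in the 8 genes that fell and had a promoter. A missing match says only that these letters are not in this window. The 250 bases before the start of both genes are shown on the gene's strand with the half-sites in capitals, since they carry the motif that separates these promoters from nearly all others in the table. The Cyp26a1 window spans chr19:37697558-37697857 with the gene on the plus strand, and its repeat, which reads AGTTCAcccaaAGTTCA on the opposite strand, lies 32 to 16 bases before the start. The Rarb window spans chr14:16575427-16575726 with the gene on the minus strand, and its repeat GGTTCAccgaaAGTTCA lies 53 to 37 bases before the start.
Cyp26a1: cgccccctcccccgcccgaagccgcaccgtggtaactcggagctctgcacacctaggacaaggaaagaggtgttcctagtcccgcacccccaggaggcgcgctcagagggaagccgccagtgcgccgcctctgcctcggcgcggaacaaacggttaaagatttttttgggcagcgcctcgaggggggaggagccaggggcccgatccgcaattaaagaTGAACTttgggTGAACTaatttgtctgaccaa
Rarb: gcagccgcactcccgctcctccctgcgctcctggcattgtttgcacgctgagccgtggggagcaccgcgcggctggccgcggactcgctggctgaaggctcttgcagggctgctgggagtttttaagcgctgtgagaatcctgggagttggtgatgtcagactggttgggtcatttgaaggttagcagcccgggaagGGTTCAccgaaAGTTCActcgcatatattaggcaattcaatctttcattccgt

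Homeobox genes held the largest rise of all. Cdx1, which activates Hox genes in the posterior embryo, read 7.67, 35.5 and 53.5 units in control replicates and 1009, 401 and 806 units after RA. The control arrays lay at or just above the floor and every RA array was many times brighter, RA replicate 2 being the lowest of these, and the rise was 3.75 ± 0.40 or 13.5-fold (adjusted p 0.00024). Prrx2, a paired-related homeobox gene of embryonic mesenchyme, went from 97.6, 266 and 204 units to 945, 752 and 1109.8 units. Its groups did not overlap, and the rise was 2.41 ± 0.42 (adjusted p 0.0109, and adjusted p 0.0671 without RA replicate 3). Both stand in a list of 17 Cdx genes and Hox cofactors, of which 13 were tested, 2 rose, 0 fell and the median was 0.19. Of 39 Hox genes 19 were tested and 1 rose. This was Hoxb4, a gene of the 3′ part of the Hoxb cluster, with 62.7, 72.2 and 53 units in control and 196, 196 and 142 units in RA arrays. The RA arrays were all above 100 units and the control arrays all below, a rise of 1.50 ± 0.23 (adjusted p 0.0045), while its other probe set changed by 0.37 with an unadjusted p of 0.141. No tested Hox gene had a change below 0: 15 were above 0 and the other 4 lay at the floor on all 6 arrays, with a median of 0.12, and 4 were higher at an unadjusted p under 0.05. Over all 11388 genes tested 5467 were above 0 and 5802 below. A Hox gene at the floor in controls cannot show a change below 0, and dim ones can pass the filter through arrays where they are high. The shared direction is therefore not read as a result.

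Stra8, which germ cells need to enter meiosis and which is named for its stimulation by RA, gave the largest rise among genes already detected in all controls. It read 148, 158 and 146 units in control replicates and 1238, 1875 and 2192 units after RA, a rise of 3.51 ± 0.27 or 11.4-fold (adjusted p 4.1e-06). The control arrays lay close together, and the lowest RA array was far above them. Of 25 germ line and meiosis genes 19 were tested, and Stra8 was the 1 that rose, with 0 falling and a median of 0.14. Dppa2, a chromatin protein of pluripotent and germ cells, was among the brightest genes and went from 9256, 6997 and 6911 units to 12319, 15044 and 12569 units. Every RA array exceeded every control array, with a rise of 0.79 ± 0.15 (adjusted p 0.02, and adjusted p 0.107 without control replicate 2). It was the 1 of 33 tested pluripotency genes, out of 34 listed, that was called, and the list's median was 0.10. Of the LIF-STAT3 response 19 of 21 genes were tested and 1 rose: Pim1, a survival kinase, with 518, 512 and 646 units in control and 1036, 1164 and 1703 units in RA arrays, a rise of 1.19 ± 0.19 (adjusted p 0.00734). Pim1 was not low in control replicate 1, in contrast to Socs3, whose change of 1.12 ± 1.02 was not called (adjusted p 0.912) and became -0.47 without that array.

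Signalling proteins of the cell surface and matrix were among the other large rises. Adgra2, an adhesion receptor that helps cells answer Wnt7 ligands, read 8.21, 12.4 and 7.74 units in control arrays and 293, 258 and 364 units after RA. It went from the floor in every control to clear signal in every RA array, at least 2.59 ± 0.17 (adjusted p 5.52e-07). Ltbp3, which stores latent TGF-beta in the matrix, went from 84, 166 and 106 units to 520.0, 884 and 511 units, a rise of 2.44 ± 0.28 (adjusted p 0.000334). Tgfbr3, the TGF-beta co-receptor betaglycan, went from 20.5, 12.1 and 45.7 units to 145, 149 and 113 units, at least 1.43 ± 0.27 (adjusted p 0.0197, and adjusted p 0.0915 without RA replicate 1). Its other probe set changed by -0.008 with an unadjusted p of 0.976. Replicate 2 was highest for Ltbp3 in both groups, while the Tgfbr3 control arrays were all at the floor. These 2 were the called members among 32 tested of 37 Nodal, TGF-beta and BMP genes, whose median was 0.07. Notch4, a Notch receptor of endothelium, went from 205, 154 and 237 units to 1085, 614 and 587 units, a rise of 1.90 ± 0.35 (adjusted p 0.0161, and adjusted p 0.0871 without RA replicate 1). RA replicate 1 was the highest there, as it was for Sema4g, a transmembrane semaphorin, which went from 161, 178 and 132 units to 817, 441 and 517 units and rose by 1.87 ± 0.31 (adjusted p 0.00783, and adjusted p 0.0543 without RA replicate 1). Sorcs2, a sortilin-family receptor, went from 45.3, 96.3 and 103 units to 239, 282 and 387 units and rose by 1.90 ± 0.32 (adjusted p 0.00975, and adjusted p 0.0671 without RA replicate 3). Its controls straddled 100 units and its RA arrays did not reach down to them.

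Further large rises came from genes of other roles. H2-Bl, a class I antigen-presentation gene, read 50.1, 51.2 and 32.5 units in control and 434, 613 and 311 units in RA arrays, a rise of 3.11 ± 0.32 or 8.64-fold (adjusted p 0.000129). Class I genes resemble each other in sequence, so signal from a relative on this probe set cannot be told apart. It was the 1 called of 10 tested among 25 class I antigen-presentation genes, with a median of 0.19. Cidea, a lipid droplet protein, went from 27, 15.5 and 29 units to 259, 266 and 376 units, at least 2.56 ± 0.18 (adjusted p 1.51e-06), and was the 1 called of 19 tested lipid droplet and lipid transport genes, whose median was 0.04. Ankrd44, an ankyrin-repeat subunit of a protein phosphatase, went from 283, 301 and 276 units to 1052, 1220.1 and 1259 units, and its rise of 2.03 ± 0.12 had the smallest adjusted p of all genes (3.04e-07). Its arrays lay close together within each group and far apart between the groups. Nt5e, the surface enzyme that makes adenosine from AMP, went from 369, 249 and 253 units to 1159, 1003 and 1264 units, a rise of 1.99 ± 0.31 (adjusted p 0.00475), the 1 call among 19 tested transglutaminase, annexin and matrix genes. Tmtc1, a protein of the endoplasmic reticulum, went from 67.3, 54 and 79.4 units to 188, 311 and 326 units, a rise of 2.01 ± 0.27 (adjusted p 0.00137). Rhobtb1 went from 28, 43.7 and 37.2 units to 162, 195 and 215 units, at least 1.92 ± 0.28 (adjusted p 0.00311), while its other probe set changed by 0.44 with an unadjusted p of 0.206. Tmtc1 and Rhobtb1 stood below 100 units on all control arrays and above it on all RA arrays, and the Nt5e groups did not overlap either. Gadd45b, a growth-arrest and stress gene, went from 322, 376 and 471 units to 695, 646 and 764 units, a rise of 0.86 ± 0.17 (adjusted p 0.019, and adjusted p 0.107 without RA replicate 3), and was the 1 called among 23 tested cell cycle inhibitors and p53 targets, which had a median of -0.06.

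**Figure D2:**
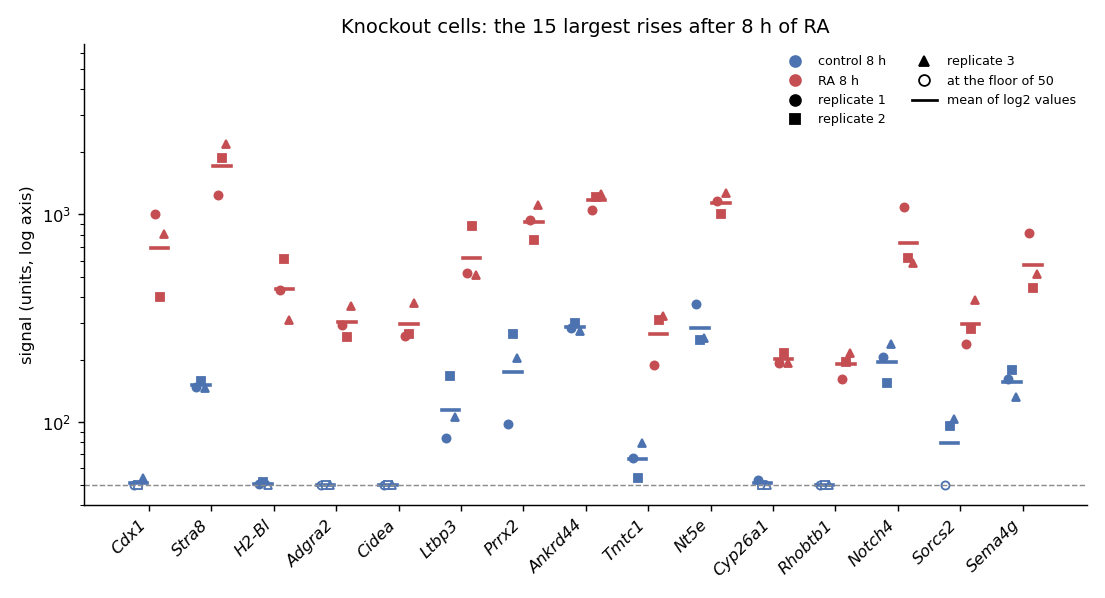
Signal on the 6 knockout arrays (vertical axis, units, log scale) for Cyp26a1 and the genes with the largest rises after 8 h of RA, 1 symbol per array with its replicate number given by its shape, open where under the floor of 50, and a bar at the mean of the log2 values. In each gene the 3 RA arrays lie above the 3 control arrays.

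Gata6, a master regulator of extraembryonic endoderm, was the 1 gene of that lineage that rose. It read 14.4, 63.9 and 41.2 units in control replicates and 175, 154 and 223 units after RA, a rise of 1.74 ± 0.33 (adjusted p 0.019, and adjusted p 0.107 without RA replicate 3), while its other probe set changed by 0.47. The groups did not overlap, and control replicate 1 was the lowest. Over 25 endoderm genes 18 were tested, 1 rose, 0 fell and the median was 0.13. The 12 defining markers of this lineage had a summed signal of 2601, 4441 and 4436 units in control replicates 1 to 3 and 4106 to 4465 units in the RA arrays, so only control replicate 1 was low. Of 10 feeder fibroblast markers 9 were on the array and 1, Thy1, reached 100 units, and the sum was 606 to 752 units in control and 501 to 705 units in RA arrays. The 8 trophoblast markers summed to 1722 to 1909 and 1855 to 1919 units. In bulk RNA a change in the number of cells of a type and a change in RNA per cell cannot be told apart.

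Of the 11 genes that fell, 6 had a control median of 1000 units or more. Slc7a3, a transporter of cationic amino acids, was the brightest and went from 8775, 8483 and 7107 units to 4883, 5584 and 4370.4 units. All RA arrays lay below all controls, and the difference was -0.72 ± 0.13 (adjusted p 0.0163, and adjusted p 0.0902 without RA replicate 3). Among Wnt pathway genes Lgr4, a receptor for R-spondins, went from 2364, 2026 and 2032 units to 1174, 1446 and 1353 units (-0.69 ± 0.15, adjusted p 0.038, and adjusted p 0.185 without control replicate 1). Mcc, an inhibitor of the pathway, gave the largest fall, from 251, 138 and 179 units to 79.8, 58.9 and 58 units (-1.50 ± 0.34, adjusted p 0.0474, and adjusted p 0.229 without control replicate 1). With Adgra2 these made 1 rise and 2 falls among 32 tested of 40 Wnt genes, with a median of 0.01. Etv6, an ETS-family repressor, went from 475, 645 and 523 units to 251, 255 and 351 units (-0.94 ± 0.17, adjusted p 0.0122, and adjusted p 0.0788 without control replicate 2) and was the 1 called of 20 tested FGF pathway and feedback genes, whose median was -0.05. The other Etv6 probe set changed by -0.09 with an unadjusted p of 0.767. Ndrg1, a hypoxia- and stress-responsive gene, went from 425, 567 and 631 units to 248, 227 and 278 units (-1.09 ± 0.22, adjusted p 0.0256, and adjusted p 0.116 without control replicate 3) and was the 1 called of 26 tested hypoxia and glycolysis genes, whose median was -0.09.

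The other 6 falls, like Slc7a3, belong to no list. Kndc1, a guanine nucleotide exchange protein of neurons, went from 213, 139 and 168 units to 63.5, 77.1 and 61.8 units (-1.35 ± 0.30, adjusted p 0.0476). 1700097N02Rik, a gene named by its cDNA clone, went from 1234, 1783 and 1278 units to 583, 712 and 559 units (-1.20 ± 0.21, adjusted p 0.011). Msrb2, a mitochondrial enzyme that repairs oxidised methionine, went from 378, 278 and 302 units to 156, 149 and 168 units (a log2 difference of -1.004 ± 0.21, adjusted p 0.0306). In each of these the highest RA array lay well below the lowest control array. Armcx1, a mitochondrial protein, went from 1624, 1393 and 1192 units to 812, 857 and 708 units (-0.82 ± 0.18, adjusted p 0.046). Tnip1, an inhibitor of NF-kappaB signalling, went from 1443, 1306 and 1462 units to 934, 969 and 656 units (-0.74 ± 0.17, adjusted p 0.0493). Akr1b8, an aldo-keto reductase, changed least, from 1642, 1620.0 and 1641 units to 1191, 1204 and 1269.7 units (-0.42 ± 0.09, adjusted p 0.0334), with controls that lay very close together. Each of the 11 falls lost its call in at least 1 of the 6 fits that left out 1 knockout array. Of the 28 rises named here 16 kept theirs in all 6. Those rises were named mainly for a large change or a small adjusted p, whereas all 11 falls are named. The shares are therefore not compared. Single fits of this kind called 35 to 69 genes higher and 0 to 9 lower. For the 6 genes of this paragraph the largest adjusted p so obtained was 0.228 for Kndc1, 0.0699 for 1700097N02Rik, 0.164 for Msrb2, 0.222 for Armcx1, 0.239 for Tnip1 and 0.136 for Akr1b8.

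**Figure D3:**
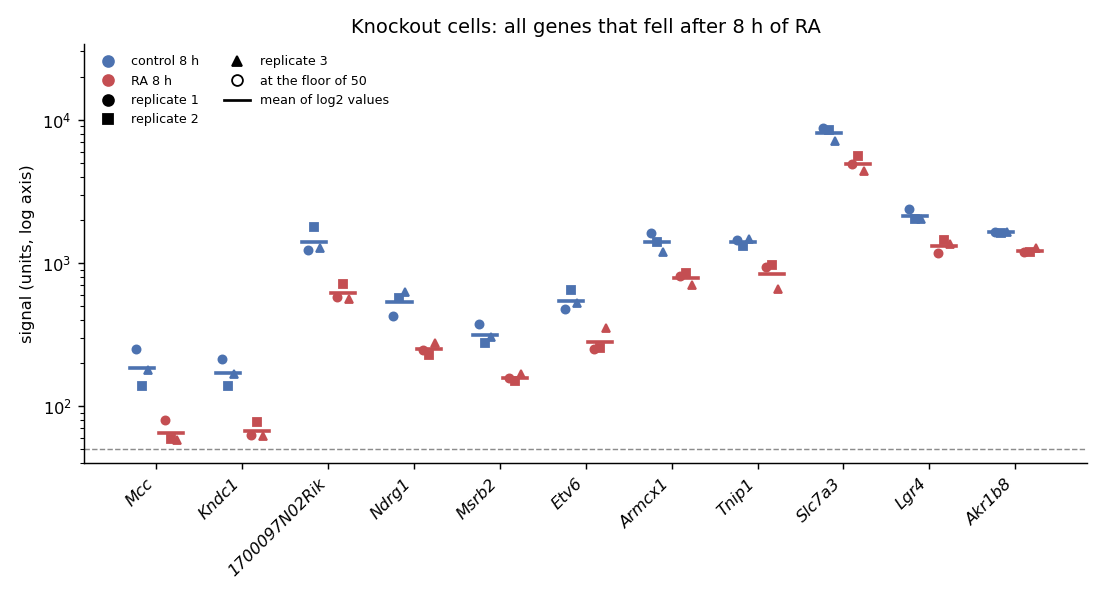
Signal on the 6 knockout arrays (vertical axis, units, log scale) for all 11 genes that fell, 1 symbol per array, with a bar at the mean of the log2 values. In each gene the 3 RA arrays lie below the 3 control arrays, by -0.42 on the log2 scale for Akr1b8 to -1.50 for Mcc.

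Lineage genes other than those above were mostly not called at 8 h. Of 26 neural genes 13 were tested with limma and 0 were called, with 0 higher and 3 lower at an unadjusted p under 0.05 and a median of 0.03. Otx2, a homeobox gene of the anterior brain, had the largest change of these. It read 1352, 215 and 119.6 units in control and 25.9, 47 and 2.94 units in RA arrays, all of the latter at the floor, with a change of -2.71 ± 0.66 (adjusted p 0.0803). Control replicate 1 was several times brighter than the other controls and than the knockout array labelled as lacking LIF, which read 165.5 units. With the replicate block the limma adjusted p was 0.0137. Of 25 primitive streak and mesoderm genes 12 were tested and 0 called, with 1 higher and 0 lower at an unadjusted p under 0.05, and of 17 trophoblast and simple epithelium genes 13 were tested and 0 called, with 1 higher and 1 lower. The medians were 0.09 and 0.05. Proliferation genes had 29 tested and 0 called, with 1 higher and 1 lower at an unadjusted p under 0.05 and a median of -0.03. Mycn, a MYC-family growth regulator of ES cells in that list, went from 2569, 3595 and 3337 units to 1474, 1673 and 1334 units with no overlap (-1.08 ± 0.27, adjusted p 0.0926, and 0.00416 with the block). Of 23 DNA methylation and Polycomb genes 21 were tested and 0 called, with 1 higher and 1 lower at an unadjusted p under 0.05. The lower one, Dnmt3l, the cofactor of de novo DNA methyltransferases, went from 11090.0, 7778 and 8352 units to 5475, 5093 and 5819.8 units (-0.72 ± 0.18, adjusted p 0.0803, and 0.0179 with the block). Of 22 immediate early and stress genes 20 were tested and 0 called, with 2 higher and 1 lower at an unadjusted p under 0.05, and of 10 feeder markers only Thy1 was tested, at 611, 452 and 480.0 units in control and 479, 332 and 274 units in RA arrays, which overlapped (-0.53 ± 0.35, adjusted p 0.803).

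**Figure D4:**
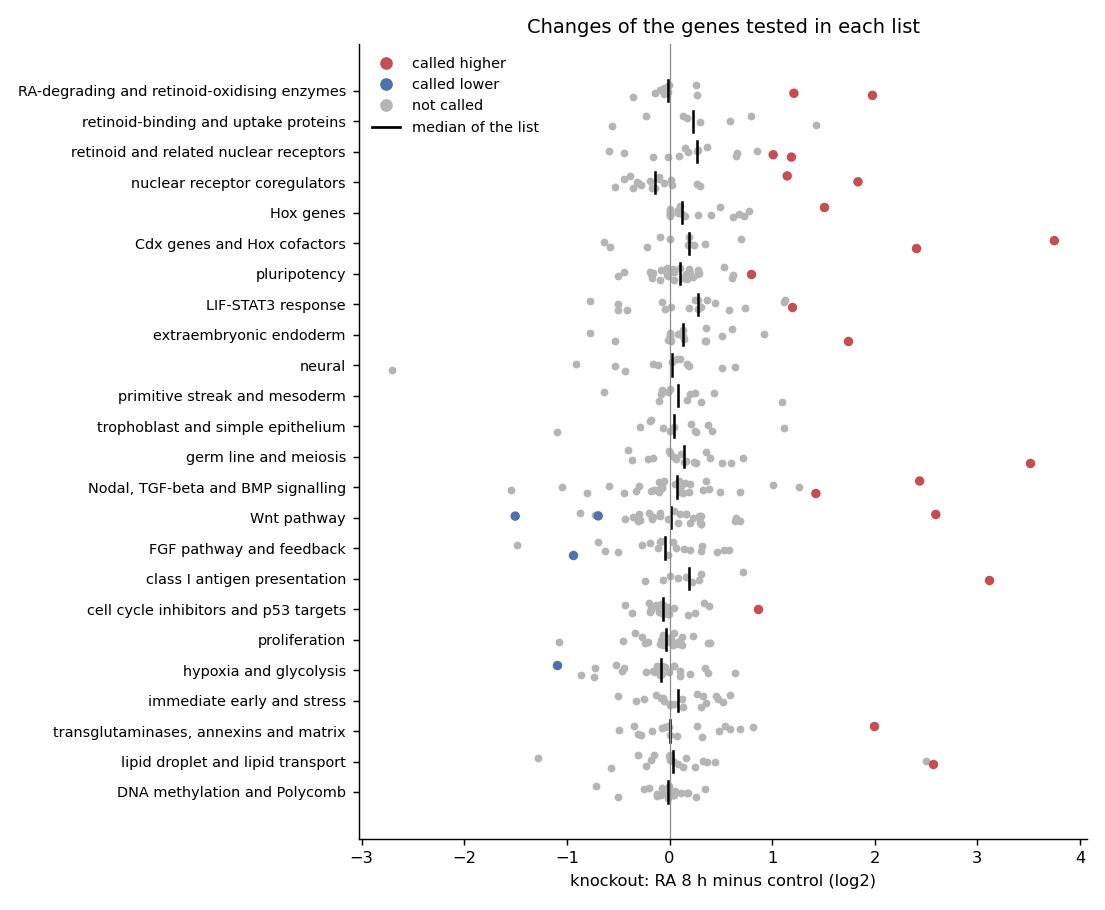
Log2 difference between RA and control knockout arrays (horizontal axis) for every gene tested in 24 of the 25 gene lists (rows), coloured where called, with a bar at each list's median. The feeder list, with 1 gene tested, is left out, medians lie between -0.14 and 0.27, and most lists have no more than 2 called genes.

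The replicate number was also fitted as a block, with effects shared by all 16 arrays of the fit, both genotypes included. With that block 233 more genes were called, 147 higher and 86 lower. A block within the 6 knockout arrays alone called 196 genes in all, among them 87 of the 109. Aqp3, a channel for water and glycerol, read 208, 784 and 1237 units in control and 2294, 2725 and 5794 units in RA replicates 1 to 3. Replicate 1 was lowest and replicate 3 highest in both groups. Its change of 2.50 ± 0.61 had an adjusted p of 0.0803 without and 0.000258 with the block. Dusp4, a phosphatase that limits ERK signalling, went from 626, 194 and 173 units to 94.7, 85.7 and 117 units (-1.49 ± 0.39, adjusted p 0.11, and 0.0428 with the block). The control array labelled replicate 1 was again the highest, and the knockout array labelled as lacking LIF read 200 units. Islr2, an immunoglobulin-domain protein of neurons, went from 21.1, 105 and 93.2 units to 181, 236 and 246 units (1.48 ± 0.41, adjusted p 0.131, and 0.00287 with the block). Insyn2b, Cemip, Igsf21, Cd37, Rhbg, Ptges and Ano1 had changes between -1.46 and 1.52 and passed the threshold in the same way. These 7 and Aqp3, Dusp4 and Islr2 were chosen after their values were seen, as were Otx2 and Stra6 in part. All are among the 12 largest changes called in the 16 arrays with the block and not without it. Some were also called under unblocked alternatives, among them Aqp3, Dusp4 and Otx2 with the LIF labels of replicate 1 exchanged.

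Wild-type cells, which share no array with the knockout, were treated in the same way. Socs3 read 368, 4484 and 3792 units in their 3 control arrays. There 103 genes were called (0.904%), 90 higher (0.79%) and 13 lower (0.114%). Of the 98 genes that rose in the knockout 63 also rose in wild type, 64.3% of the knockout's and 70.0% of the wild type's rises, and 97 changed in the same direction. Over all genes tested 63.5% had the same sign in both genotypes. The median of the 98 was 1.15 in the knockout, whose values chose them, and 1.04 in wild type, with 34 of the 98 larger in wild type. Of the 11 falls 4 were also called in wild type, 36.4% of the knockout's and 30.8% of the wild type's falls, all 11 had the same direction, and the median was -0.68 in wild type. Since the 109 genes were chosen by their knockout values, their smaller medians in wild type are a description with no test.

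The test of the difference between the genotypes' responses, an interaction term in limma, called 0 of 11388 genes, and 211 (1.85%) had an unadjusted p under 0.05. With the replicate block it again called 0, and 367 (3.22%) had an unadjusted p under 0.05. The 109 called genes were chosen by their knockout change, which is a part of the interaction. Their unadjusted interaction p-values, here and below, are therefore not read as results. Among them the 3 genes with the smallest unadjusted p were Cyp26a1, Kcnk4 and Gsdmd. Cyp26a1 read 17.5, 84.2 and 71.9 units in wild-type controls and 637, 1695 and 691 units in wild-type RA arrays, a rise of 3.76 ± 0.29. The interaction, knockout minus wild type, was -1.78 ± 0.41 (unadjusted p 0.000569, adjusted p 1), with the position of the probes in the disrupted gene not examined here. Kcnk4, a potassium channel, read 14.3, 28.5 and 36.4 units in knockout controls and 116, 104 and 96.6 units in knockout RA arrays, a rise of at least 1.07 ± 0.20 (adjusted p 0.0182, and adjusted p 0.0985 without RA replicate 1). Its wild-type arrays overlapped, with 66.9, 10.4 and 43.5 units in control and 45.7, 6.57 and 58.3 units after RA (-0.07 ± 0.20), and the interaction, computed from floored values, was 1.14 ± 0.29 (unadjusted p 0.00124, adjusted p 1). Gsdmd, which forms membrane pores in pyroptosis, read 56.5, 36.4 and 67.1 units in knockout control and 139.9, 117 and 147 units in knockout RA arrays, a rise of 1.22 ± 0.22 (adjusted p 0.0154, and adjusted p 0.0802 without RA replicate 3). In wild type it read 172, 107 and 149.7 units in control and 152, 133 and 200.2 units in RA arrays, which overlapped (0.19 ± 0.22), with an interaction of 1.03 ± 0.31 (unadjusted p 0.00488, adjusted p 1).

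Other genes with large knockout rises had these values in both genotypes. Cdx1 rose by 3.75 ± 0.40 in the knockout and 3.17 ± 0.40 in wild type, with an interaction of 0.58 ± 0.57 (unadjusted p 0.323). Stra8 rose by 3.51 ± 0.27 and 4.22 ± 0.27, with an interaction of -0.71 ± 0.38 (unadjusted p 0.0859). Adgra2 rose by at least 2.59 ± 0.17 in the knockout and at least 1.91 ± 0.17 in wild type (unadjusted interaction p 0.0103, from floored values), Ltbp3 by 2.44 ± 0.28 and 1.55 ± 0.28 (0.0377) and Nr6a1 by 1.19 ± 0.13 and 0.72 ± 0.13 (0.0245). The reverse order held for Nrip1, with 1.15 ± 0.17 in the knockout and 1.88 ± 0.17 in wild type (0.00728). None of these 6 differences passed adjustment (adjusted p 1), and a missed threshold does not show that the genotypes respond alike.

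**Figure D5:**
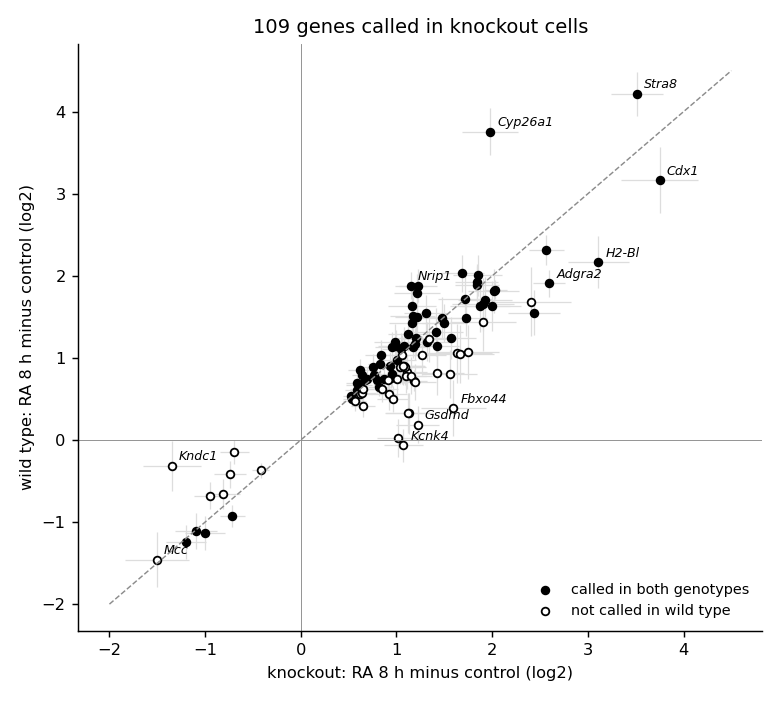
Log2 change after 8 h of RA in wild-type cells (vertical axis) against that in knockout cells (horizontal axis) for the 109 genes called in the knockout, 1 point per gene with bars of 1 standard error, open where the gene was not called in wild type, and a dashed line of equal change. Of the 98 rises 34 lie above the line, and Cyp26a1 has 1.98 in the knockout and 3.76 in wild type.

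After 72 h with RA the same genes took several courses, given here as signal on 2 knockout arrays with no control of that time, so that RA and time in culture cannot be told apart. Stra8 stood at 13279 and 12608 units and Cyp26a1 at 2872 and 3075 units, far above their 8 h levels, and Gata6 at 1636 and 1472 units. Hoxb4 read 813 and 797 units, Nrip1 1533 and 1523 units, Nt5e 3209 and 2384 units and Cidea 1231 and 1134 units, each above every 8 h RA array. Cdx1 at 1292 and 875 units and Ankrd44 at 1279 and 1172 units lay within or near the range of the 8 h RA arrays. Notch4 at 221 and 81.8 units was below all 8 h RA arrays, as was Ltbp3 at 358 and 485 units. Among the falls Slc7a3 read 2079 and 2311 units, Ndrg1 109.9 and 83.2 units and 1700097N02Rik 247 and 275 units, all below the 8 h RA arrays, while Akr1b8 read 1465 and 1609.5 units, above them.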

How the data were processed

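Total RNA was copied to biotin-labelled cRNA and hybridised to single-colour Affymetrix arrays, per the labels' protocols. The authors deposited linear signal intensity, 1 value for each of 45101 probe sets per array, made with MAS5 per the submitters' processing notes (version not given in the sources used here). Arrays have no read depth, and 3 arrays a group gave knockout log2 differences a median standard error of 0.194. Arrays were rescaled to a trimmed mean of 500 (2% off either tail), floored at 50, and taken to log2. The platform annotation gave 34958 probe sets 1 gene symbol, 932 several and 9211 none listed; only the first kind was used. Each of 18194 genes was represented by its brightest probe set on average, and genes with at least 2 arrays of the fit at 100 units were tested (11388). No named gene had another probe set with the opposite direction and an unadjusted p under 0.05. Some other probe sets nevertheless showed little change, as given for Hoxb4, Gata6, Tgfbr3, Rhobtb1 and Etv6. Those of Nrip1 changed by 0.33, 0.51 and 1.44, and those of Gadd45b by 0.20 and 0.72.

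The limma package (3.58.1, under R 4.3.3; lmFit, eBayes with an intensity trend, two-sided) was run on the 16 arrays of the 6 replicated groups, with 10 residual degrees of freedom. P-values were adjusted by Benjamini-Hochberg over all genes tested, with a threshold of 0.05, and "called", "rose" and "fell" are used of genes past it. Values after "±" are standard errors of log2 differences with n = 3 arrays a group. Replicate numbers come from the sample titles, an unnumbered title being replicate 1, and for 2 unnumbered wild-type titles from their order of deposition. Same-numbered knockout control and RA arrays deviated weakly together from their group means (r of 0.143, 0.271 and 0.271 over genes). Differently numbered ones had r of -0.259 to 0.0113. Deviations from a group mean sum to 0 for each gene, so these lower values follow in part from the others and add no separate support. Pairing by number rests on the titles and the weak correlations of same-numbered arrays, and blocked values are given where they change a call. Alternatives covered the block, the floor, the filter, the normalization, the probe set rule, a minimum fold, the LIF labels and each array left out. The script was tested on simulated data. Promoter sequences are from RefSeq, assembly GRCm38.p6.

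Genes were named by rule: Cyp26a1, Socs3, the 15 largest rises, the falls (up to 12), up to 5 called members of each list by smallest adjusted p or else the 2 with the largest change, and the 3 called genes with the smallest interaction p. The comparison and the 25 gene lists were chosen with earlier results of these data known. Values of some genes the rule selects are left out.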

Additional observations from a re-analysis of the deposited data

How the results depend on the processing

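Against 109 calls (98 higher, 11 lower) in the knockout, 103 in wild type and 0 for the interaction, the replicate block on 16 arrays gave 342 (245 and 97), 275 and 0. The 6 knockout arrays alone gave 62 (55 and 7) without a block and 196 (149 and 47) with it. With no filter on dim genes the counts were 57 (48 and 9), 67 in wild type and 2 for the interaction, with more genes in the adjustment. A 2-fold minimum left 6 (6 and 0), quantile normalization 7 falls, and testing every named probe set 6 falls. Exchanging the LIF labels of replicate 1 gave 156 calls, 29 of them falls, and 160 in wild type, and 95 of the 109 genes were still called. The cause of these changes was not tested. Leaving out each array in turn gave 36 to 75 knockout calls, 35 to 69 higher and 0 to 9 lower, 58 to 135 in wild type, and 0 to 0 for the interaction. Over all alternatives 1094 values of named genes were computed: 848 kept their direction and side of the threshold, 208 lost and 36 gained the call, and 2 reversed, both of Socs3, which was -0.35 with the LIF labels exchanged and ran from -0.47 without knockout control replicate 1 to 1.93 over the arrays left out in turn. Exchanging the LIF labels ended the calls of Akr1b8, Gata6, Kndc1 and Msrb2. With that exchange Aqp3, Dnmt3l, Dusp4, Krt19, Mycn and Otx2 were called, which were not called with the labels as given and no block. A floor of 100 units ended the calls of Cyp26a1, Dhrs3, Gata6, Hoxb4, Rarb, Rhobtb1 and 7 others. Adgra2, Ankrd44, Cdx1, Cidea, H2-Bl and Stra8 were called under all 17 alternatives run on them. For genes under about 100 units, signal close to background limits what 3 arrays a group can show.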

Other observations

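Of 4 further genes of the lists 0 were called by limma without the replicate block and with the LIF labels as given. Lrp1 and Snai1 were called with the block, and Krt19 without it once the LIF labels of replicate 1 were exchanged. All 4 had an unadjusted p under 0.05 without the block. Lrp1, an endocytic receptor listed with the retinoid uptake proteins, read 176, 204 and 235 units in knockout control and 377, 285 and 412 units in RA arrays, which did not overlap (0.80 ± 0.28, limma adjusted p 0.303, and 0.0378 with the replicate block). Snai1, a repressor that drives the epithelial to mesenchymal transition, read 65.5, 60.3 and 113 and 219, 91 and 221 units, which overlapped (1.10 ± 0.40, adjusted p 0.337, and 0.0218 with the block). Krt19, a keratin of simple epithelia, read 86.6, 125 and 147 and 36, 65.5 and 38.2 units, with all RA arrays below all controls (-1.09 ± 0.40, adjusted p 0.343, and 0.112 with the block), and read 128 and 133 units at 72 h. Tfap2c, a transcription factor of trophoblast and germ cells, read 108, 281 and 223 and 385, 602 and 295 units (1.11 ± 0.47, adjusted p 0.488, and 0.0912 with the block).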
